A study of Mus musculus with 11 samples.

Results

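Expression of 10 transcriptional targets of p53 (*Cdkn1a*, *Mdm2*, *Ccng1*, *Bax*, *Aen*, *Phlda3*, *Zmat3*, *Trp53inp1*, *Bbc3* and *Sesn2*) was examined in mouse oviductal and ovarian surface epithelium (OSE) organoids, in tissue and in tumors with edited *Trp53*. The genes were taken by name as well-known p53 targets, with earlier results of these data known, and are 10 of the 18305 genes measured. RNA of 27 libraries was sequenced. Wild-type C57BL/6 mice gave the tissue libraries (3 of oviduct and 3 of OSE) and the libraries of wild-type cultures (3 oviductal, 2 OSE). Mice of a B6J.129(B6N) background that express Cas9 and GFP from the ROSA26 locus in all cells (Cas9GFP mice) gave 3 libraries of oviductal organoids with unedited p53, called Cas9-GFP organoids here. The 3 libraries of TBP clones came from Cas9GFP oviductal organoids transfected with guide RNAs against *Trp53*, *Brca1* and a further tumor suppressor gene. Each TBP line grew out of a single cell under Nutlin-3a, a compound that blocks the binding of Mdm2 to p53 and stops the growth of cells with working p53. The 6 TBP tumors grew in immunodeficient NSG mice after injection of TBP clones, so that they hold host cells with unedited *Trp53*. The 4 tumor-derived organoid lines were established from such tumors and kept in Nutlin-3a. T1-mes and T3-mes came from tumors of mixed epithelial and mesenchymal shape, T2-epi and T4-epi from glandular ones. The study presents all 4 lines as descended from 1 original TBP clone. Their p-values therefore measure spread between tumors of 1 clone and not between clones. All clones, tumors and tumor-derived organoids thus carry the Cas9 and GFP alleles of the Cas9-GFP organoids, whereas the C57BL/6 organoids do not. Per the study's methods, tissues, wild-type organoid lines and tumors were independent samples, but the number of mice is not given in the labels. Each organoid line was pooled from the organs of 6 or more animals. Every injected mouse got the same clone at 2 sites, so that some of the 6 tumors may share a mouse or a clone. Their p-values may therefore in part measure spread within a mouse or a clone. Whether the 3 Cas9-GFP libraries came from separate lines is not stated for them in particular. The labels count 3 TBP mutants, whereas the methods describe a pair of independent clones for each set of edited genes, so that TBP clones 1 to 3 (the libraries' numbers) may share a clone, and their p-values may in part measure technical spread. Cas9-GFP organoids were not selected in Nutlin-3a, and whether the clones were in it at harvest is not given in the sources used here. This drug and the group therefore cannot be told apart where tumor-derived organoids are compared with either.

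The p53 protein is a transcription factor that is kept low by its own target Mdm2, an E3 ubiquitin ligase that marks it for degradation. Under DNA damage or other stress p53 is stabilized, binds DNA elements made of paired decamers and turns on genes of cell cycle arrest, cell death, repair and its own restraint. Loss of p53 is found in nearly all high-grade serous ovarian carcinomas, which are thought to arise largely from the oviduct. Among the targets, *Cdkn1a* (chromosome 17, 29090976 to 29100727, GRCm38) encodes p21, an inhibitor of cyclin-dependent kinases, and *Ccng1* (chromosome 11, 40748552 to 40755311) encodes cyclin G1, which acts on the p53 and Mdm2 loop through protein phosphatase 2A. *Mdm2* itself lies on chromosome 10 (117688875 to 117710758). *Bax* (chromosome 7, 45461697 to 45466898) and *Bbc3* (chromosome 7, 16308393 to 16318205) encode Bcl-2 family proteins that open the mitochondrial outer membrane or set off that step. *Aen* (chromosome 7, 78895854 to 78911209) encodes a nuclease of apoptotic cells, and *Trp53inp1* (chromosome 4, 11156431 to 11174379) a nuclear stress protein that promotes p53-dependent death. *Phlda3* (chromosome 1, 135766119 to 135769136) encodes an inhibitor of Akt, *Zmat3* (chromosome 3, 32334792 to 32366014) a zinc finger protein that binds RNA, and *Sesn2* (chromosome 4, 132492032 to 132510501) a sestrin that restrains mTORC1.

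The proximal promoters of the members were scanned for the p53 consensus element, a pair of abutting blocks of 10 letters, to show which members hold such letters near their start. RefSeq promoter windows of 300 bases (250 before and 50 after the start, build GRCm38.p6) were on hand for 8 of the 10 members, as 12 windows. With at most 3 mismatches and the core C and G of each block required, 4 members held an element: *Cdkn1a*, *Ccng1*, *Aen* and *Bbc3*. The element reads the same on both strands, and 1.38% of all 32851 windows hold it under these settings. The following 3 windows are shown 5′ to 3′ with the matching letters in capitals, since *Ccng1* and *Aen* were lower in the mutant cultures in the tests given later and *Cdkn1a* was not called there.
Cdkn1a, chr17:29090729-29091028, plus strand: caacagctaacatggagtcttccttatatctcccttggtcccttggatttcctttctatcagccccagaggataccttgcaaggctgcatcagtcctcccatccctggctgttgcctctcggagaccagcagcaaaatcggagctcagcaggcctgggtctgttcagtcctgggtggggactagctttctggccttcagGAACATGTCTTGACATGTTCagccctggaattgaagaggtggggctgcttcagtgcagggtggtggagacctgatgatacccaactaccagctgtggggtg
Ccng1, chr11:40755237-40755536, minus strand: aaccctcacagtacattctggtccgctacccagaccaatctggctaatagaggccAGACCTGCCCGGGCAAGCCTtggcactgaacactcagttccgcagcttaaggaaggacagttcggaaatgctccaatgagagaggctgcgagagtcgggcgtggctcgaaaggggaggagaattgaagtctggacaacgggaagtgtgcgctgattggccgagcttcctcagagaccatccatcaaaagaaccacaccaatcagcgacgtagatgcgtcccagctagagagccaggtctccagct
Aen, chr7:78895677-78895976, plus strand: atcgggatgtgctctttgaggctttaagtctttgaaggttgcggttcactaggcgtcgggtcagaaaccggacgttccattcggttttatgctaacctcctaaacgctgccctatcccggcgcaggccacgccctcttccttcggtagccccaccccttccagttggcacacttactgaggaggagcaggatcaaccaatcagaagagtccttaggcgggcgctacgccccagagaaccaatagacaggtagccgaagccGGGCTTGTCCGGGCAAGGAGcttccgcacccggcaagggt
The matches in *Cdkn1a* and *Ccng1* have 1 mismatch each, which 0.067% of all windows reach, and those in *Aen* and *Bbc3* have 3. In *Bbc3* the matching letters were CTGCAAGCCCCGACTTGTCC, on chromosome 7 from 16309486 to 16309505. *Mdm2*, *Bax*, *Phlda3* and *Sesn2* had no such letters in their windows, nor had the other windows of *Cdkn1a* and *Bbc3*. The scan allowed no letters between the blocks and covered these windows only. A window without a match therefore does not show that the gene lacks an element. A match describes letters and is not evidence of binding.

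*Trp53* (chromosome 11, 69580359 to 69591873) was examined first as the targeted gene. Its levels are normalized counts (CPM, the reads of a gene scaled to the library's total and adjusted by TMM factors), as are all levels below. Cas9-GFP organoids held 52.5, 34.5 and 61.0 CPM. The 3 TBP clones held 0, 0.536 and 5.02 CPM (0, 1 and 22 reads), and the tumor-derived organoids held 4.37 to 9.22 CPM. All 7 mutant cultures thus lay below the lowest Cas9-GFP library. The log2 fold change against Cas9-GFP organoids was -3.97 in clones (standard error, SE, 0.63, adjusted p = 0.0150) and -2.87 in tumor-derived organoids (SE 0.36, adjusted p = 0.0184). Both calls were lost without any 1 of the 3 Cas9-GFP libraries (adjusted p 0.0515 to 0.111 in clones and 0.113 to 0.138 in tumor-derived organoids). In the test of the clones, *Trp53* passed the filter on low counts through the Cas9-GFP organoids alone, which favors a lower value in clones. TBP tumors held 18.3 to 57.1 CPM of *Trp53* with a median of 30.7, and overlapped Cas9-GFP organoids and oviduct tissue. The reads come from the 3′ end of transcripts while the guide RNA targets exon 3, so they show the amount of *Trp53* RNA and not the edit itself.

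The lowest total count was 82239 (TBP clone 1) and the highest 4531767 (TBP clone 3), with 600579 to 3083507 in the other libraries. Where a library had 0 reads of a gene, its level could still reach the worth of 3 reads, namely 33.5 CPM in TBP clone 1 and 0.684 CPM in TBP clone 3. In TBP clone 1, *Bax*, *Zmat3*, *Bbc3* and *Sesn2* had 0 reads, so that their levels in this library were below detection at its depth. The unique molecular identifiers were not collapsed in the counts, so intervals and limits cover counting error only. The epithelial marker list summed to 2302 to 3933 CPM in Cas9-GFP organoids and clones, and to 276 CPM in T3-mes. Fibroblast markers summed to at most 22.3 CPM in those groups, to 3198 CPM in T1-mes, to 7780 CPM in T3-mes and to 31.8 and 103 CPM in the epi lines. Endothelial markers summed to at most 19.0 CPM in every organoid group.

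**Figure D1:**
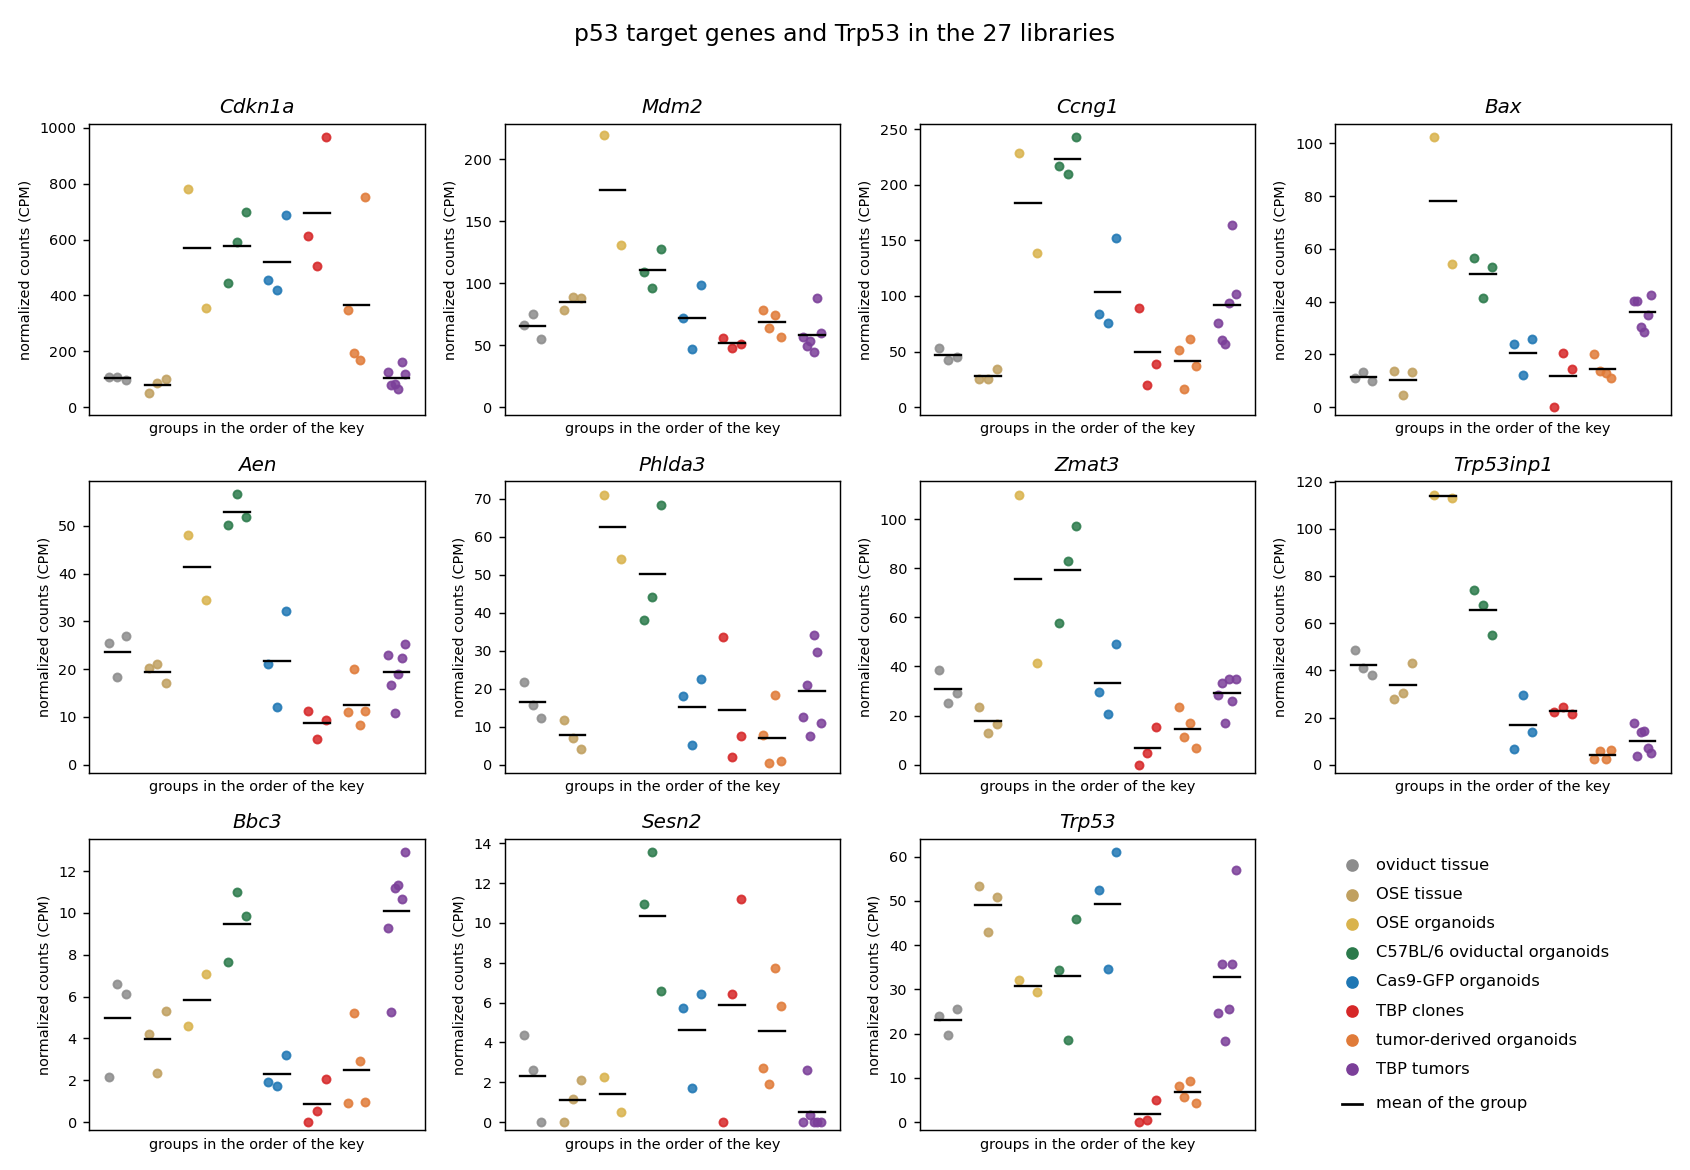
Normalized counts (CPM, linear axes from 0) of the 10 p53 targets and *Trp53* in the 27 libraries, with 1 point per library, colored by group, and a black bar for the group mean. Among organoid groups, mean *Ccng1*, *Aen* and *Zmat3* are highest in the C57BL/6 oviductal and OSE organoids. These means are intermediate in Cas9-GFP organoids and low in clones and tumor-derived organoids, while *Cdkn1a* stays at 507 to 968 CPM in the clones. Mean *Ccng1* is also low in oviduct tissue (46.8 CPM) and OSE tissue (28.3 CPM). Mean *Aen* and *Zmat3* are higher in both tissues than in clones and tumor-derived organoids.

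In TBP clones against Cas9-GFP organoids, the comparison of edited with matched unedited cultures, 0 of 8 members tested were called, beside 0.817% of the 7708 genes tested. *Ccng1* held 84.1, 76.0 and 152 CPM in Cas9-GFP organoids and 89.4, 20.4 and 38.6 CPM in the clones. Clones 2 and 3 lay below every Cas9-GFP library, while clone 1, with 8 reads, lay within their range. The log2 fold change was -1.50 (SE 0.51, adjusted p = 0.292). *Zmat3* held 29.6, 20.7 and 49.2 CPM in Cas9-GFP organoids and 0, 4.82 and 15.3 CPM in the clones. The values did not overlap, although the limit for 0 reads in clone 1 lies above most of them, and the log2 fold change was -1.76 (SE 0.57, adjusted p = 0.259). *Aen* held 21.0, 12.1 and 32.1 CPM in Cas9-GFP organoids against 11.2, 5.36 and 9.35 CPM in the clones. These groups also lay apart, with 1 read in clone 1, at a log2 fold change of -1.52 (SE 0.54, adjusted p = 0.328). *Cdkn1a* held 456, 418 and 689 CPM in Cas9-GFP organoids and 614, 507 and 968 CPM in clones, so that the mean was higher in the edited lines, within the overlap of the groups (log2 fold change 0.45, SE 0.36, adjusted p = 0.737).

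The other members tested in the clones were *Bax* (log2 fold change -0.41, SE 0.51), *Mdm2* (-0.53, SE 0.37), *Phlda3* (-1.27, SE 0.77) and *Trp53inp1* (0.54, SE 0.54). Their groups overlapped. Of the 8 members with enough reads for the test, 6 had a log2 fold change below 0, with a median of -0.90 beside -0.01 for all genes tested. *Bax*, *Aen* and *Zmat3* reached the filter's level through Cas9-GFP organoids alone and *Trp53inp1* through the clones alone, which favors differences in that direction. None was called by edgeR, 3 had an unadjusted p under 0.05 (*Ccng1*, *Zmat3* and *Aen*) where 9.95% of all genes did, and DESeq2 called none (101 genes in all). Without TBP clone 1, again none was called, and *Ccng1* had a log2 fold change of -1.84 (adjusted p = 0.0922). *Bbc3* and *Sesn2* did not pass the filter. *Bbc3* had 2, 1 and 3 reads in Cas9-GFP organoids and 0, 1 and 9 in the clones, which gives a ratio of pooled CPM of 0.673 with an exact 95% counting interval from 0.222 to 2.25. *Sesn2* held 5.73, 1.73 and 6.42 CPM in Cas9-GFP organoids and 0, 6.43 and 11.2 CPM in the clones, an overlap of both groups.

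In tumor-derived organoids against the same Cas9-GFP organoids, no member was called by edgeR either, and all 9 members tested had a log2 fold change below 0. The median was -0.84, beside 0.04 for all 9568 genes tested, of which 1.08% were called. *Ccng1* reached 51.5 CPM (T1-mes) and 61.1 CPM (T3-mes) in the mes lines and 16.6 CPM (T2-epi) and 36.9 CPM (T4-epi) in the epi lines. All 4 lines lay below the Cas9-GFP range (log2 fold change -1.36, SE 0.44, adjusted p = 0.169). *Trp53inp1* held 2.28 to 6.31 CPM in the 4 lines and 6.69, 29.4 and 13.9 CPM in Cas9-GFP organoids. The groups lay apart by a small gap (log2 fold change -1.97, SE 0.62, adjusted p = 0.160). *Zmat3* held 6.79 to 23.7 CPM, so that T1-mes reached into the Cas9-GFP range (log2 fold change -1.22, SE 0.47, adjusted p = 0.229). *Cdkn1a* ran from 169 CPM in T3-mes to 752 CPM in T4-epi. Its log2 fold change of -0.55 was close to its SE of 0.50. For *Mdm2* the value was -0.12 (SE 0.28), with 56.8 to 78.4 CPM in the 4 lines. *Bax* (-0.56, SE 0.37), *Aen* (-0.84, SE 0.43), *Phlda3* (-1.21, SE 0.99) and *Sesn2* (-0.13, SE 0.66) overlapped between the groups. *Bbc3* was not tested, with 21 reads in the lines and 6 in Cas9-GFP organoids, a ratio of pooled CPM of 1.06 (exact 95% counting interval 0.415 to 3.22). The 3 members with an unadjusted p under 0.05, where 17.3% of all genes had one, were *Ccng1*, *Zmat3* and *Trp53inp1*. *Trp53inp1* reached the filter's level through Cas9-GFP organoids alone. DESeq2 called none of the members and 560 genes in all. Both comparisons use the same 3 Cas9-GFP libraries, so that they are not independent of each other.

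**Figure D2:**
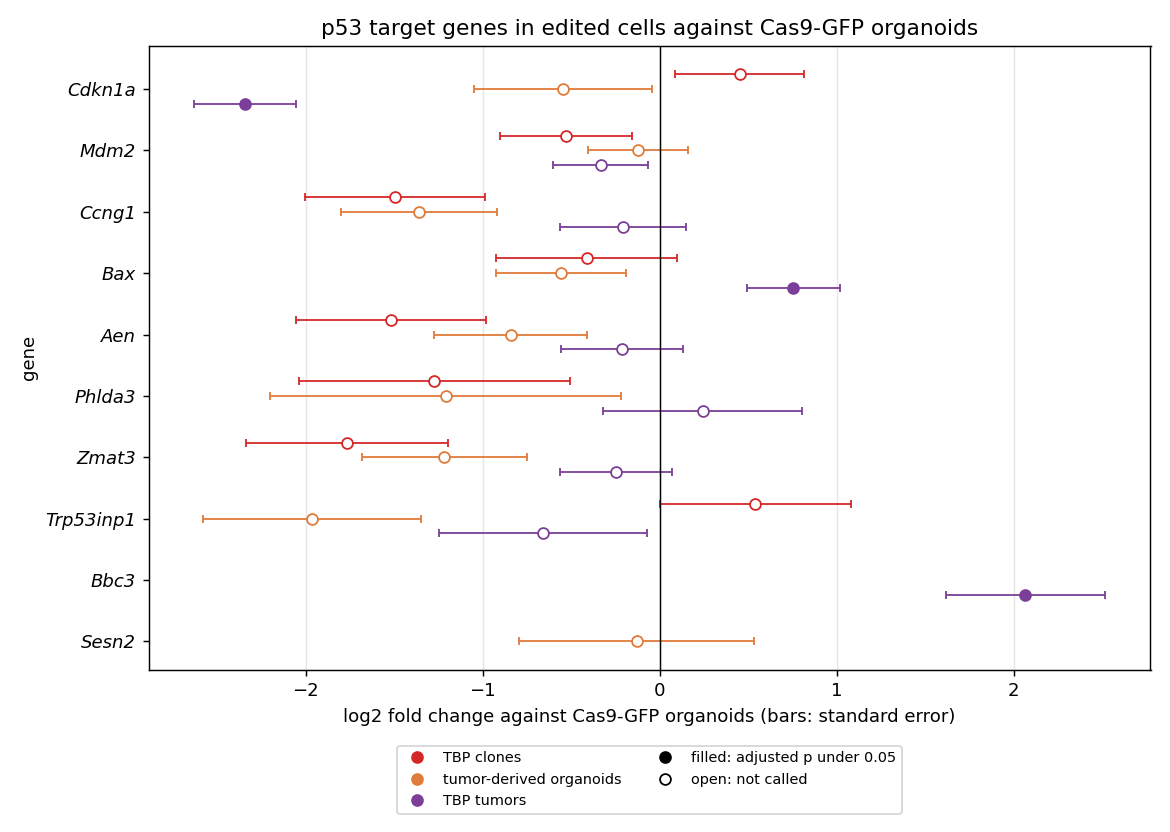
Log2 fold changes (x axis, bars are standard errors) of the p53 targets in TBP clones, tumor-derived organoids and TBP tumors, each against the same 3 Cas9-GFP libraries. Filled points have an adjusted p under 0.05, which only *Cdkn1a*, *Bax* and *Bbc3* in tumors reach (*Bbc3* passed the filter through the tumors alone), and members without a point did not pass the filter on low counts.

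When all 7 TBP-mutant cultures were compared with all 6 p53-intact oviductal cultures, 3 of 9 members tested were lower in the mutants: *Ccng1*, *Zmat3* and *Aen*. The share of genes called was 3.75% of 9252, and 1.98% were lower. The median log2 fold change of the members was -1.83, beside 0.01 for all genes. *Ccng1* ranged from 16.6 to 89.4 CPM with a median of 38.6 in the mutant cultures and from 76.0 to 243 CPM in the intact ones. The ranges met only at TBP clone 1 (log2 fold change -2.03, SE 0.39, adjusted p = 0.0128). *Zmat3* fell by 2.18 on the log2 scale (SE 0.43, adjusted p = 0.0148) and *Aen* by 1.83 (SE 0.38, adjusted p = 0.0172). *Zmat3* and *Trp53inp1* reached the filter's level through the intact cultures alone, and of the other 7 members 2 were called. *Bax* (-1.31, adjusted p = 0.0538), *Phlda3* (-2.28, adjusted p = 0.0798) and *Trp53inp1* (-1.95, adjusted p = 0.0954) missed the threshold, as did *Mdm2* (-0.61, adjusted p = 0.164) and *Sesn2* (-0.43, adjusted p = 0.658). *Cdkn1a* was at 507 ± 295 CPM (SD, n = 7) in mutant and 549 ± 127 CPM (SD, n = 6) in intact cultures, a log2 fold change of -0.14 with an SE of 0.36. *Bbc3* was not tested, with 0 to 5.22 CPM in mutant and 1.73 to 11.001 CPM in intact cultures. The call of *Aen* was lost without C57BL/6 oviductal organoids 3 (adjusted p = 0.0505), while *Bax* was also called without TBP clone 1 (adjusted p = 0.0492) or Cas9-GFP organoids 2 (adjusted p = 0.0305) and *Phlda3* without T3-mes (adjusted p = 0.0281). The tumor-derived organoids descend from 1 TBP clone, so that the 7 libraries are not fully independent.

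This result depended on which intact cultures served as the reference, a split tried after the data had been seen. Against Cas9-GFP organoids alone, 0 of 9 members were called (35 genes called in all, 0.351% of 9974). The log2 fold changes were -1.37 for *Ccng1* (SE 0.44, adjusted p = 0.277), -1.42 for *Zmat3* (SE 0.50, adjusted p = 0.323) and -1.05 for *Aen* (SE 0.43, adjusted p = 0.406). At an unadjusted p under 0.05 there were these 3 members, and 10.6% of all genes. The other values ran from -1.15 for *Phlda3* (SE 0.89) to 0.25 for *Sesn2* (SE 0.66), which reached the filter's level through the mutant cultures alone. Against C57BL/6 oviductal organoids alone, 8 of 10 members were lower, where 9.05% of 10043 genes were called and 5.23% were lower. Their log2 fold changes ran from -0.87 for *Mdm2* (adjusted p = 0.0406) to -2.87 for *Phlda3* (adjusted p = 0.0363), and *Ccng1* reached -2.47 (adjusted p = 0.00332). *Bbc3*, counted among the 8, reached the filter's level through the C57BL/6 organoids alone, where it is high, and of the other 9 members 7 were lower. The members not called there were *Cdkn1a* (-0.21, SE 0.49) and *Sesn2* (-0.84, SE 0.55). The edited lines descend from Cas9GFP mice, whereas mouse strain and p53 state cannot be told apart in the comparison with C57BL/6 organoids. Against either reference, the *Trp53* edit goes together with the other edits and with clonal outgrowth under Nutlin-3a. Effects of these cannot be told apart from those of p53 loss.

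**Figure D3:**
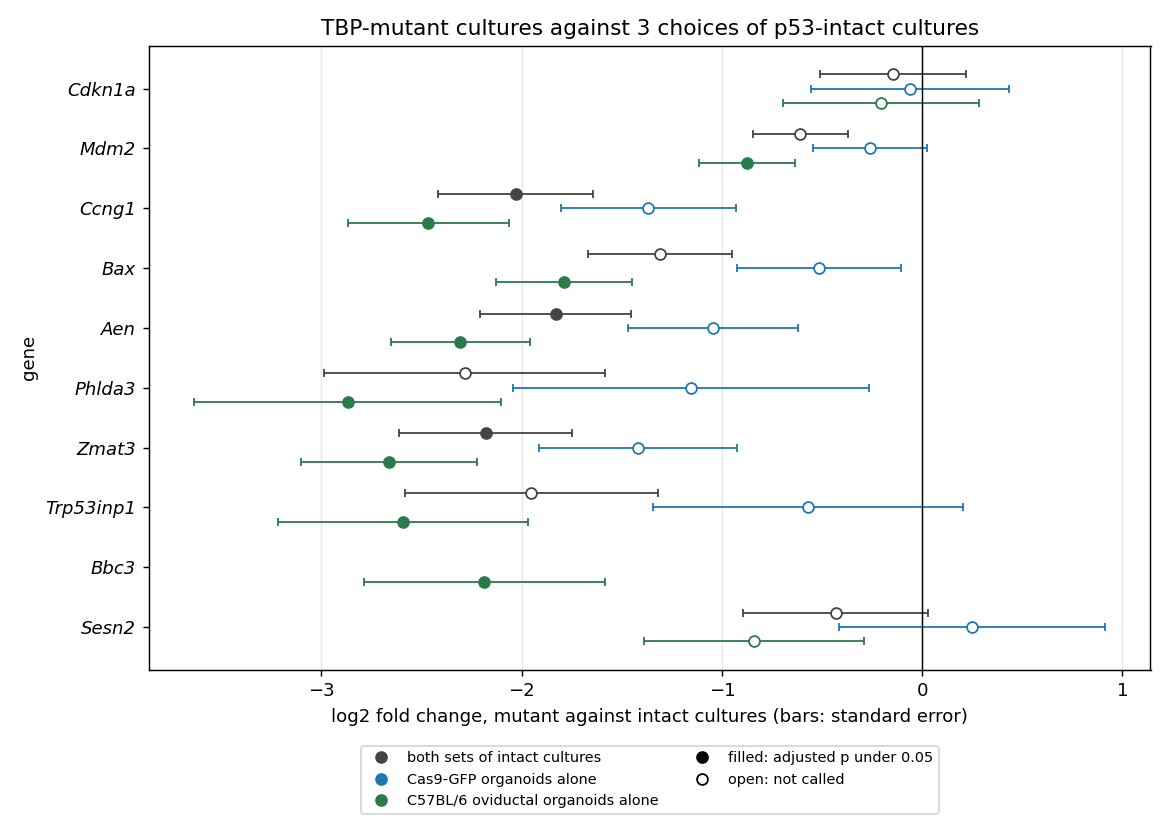
Log2 fold changes (x axis, bars are standard errors) of the p53 targets in 7 TBP-mutant cultures against both sets of intact oviductal cultures together (gray), Cas9-GFP organoids alone (blue) or C57BL/6 oviductal organoids alone (green). Filled points have an adjusted p under 0.05, of which there are 3 in gray, 0 in blue and 8 in green, among the last *Bbc3*, which passed the filter through the C57BL/6 organoids alone.

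The p53-intact cultures themselves differed: 6 of 8 members tested were lower in Cas9-GFP than in C57BL/6 oviductal organoids. Over all genes, 26.3% of 8323 were called in this comparison and 13.3% were lower. The members' median log2 fold change was -1.21, beside 0.002 for all genes. *Ccng1* held 217, 210 and 243 CPM in the C57BL/6 organoids, all above the highest Cas9-GFP library at 152 CPM (log2 fold change -1.08, SE 0.25, adjusted p = 0.00694). *Bax* held 56.7, 41.5 and 53.2 CPM against 23.9, 12.1 and 25.7 CPM, again without overlap (log2 fold change -1.24, SE 0.30, adjusted p = 0.00914). *Trp53inp1* held 73.9, 67.7 and 55.1 CPM against 6.69, 29.4 and 13.9 CPM (log2 fold change -2.09, SE 0.39, adjusted p = 0.00224). *Trp53inp1* and *Phlda3* reached the filter's level through the C57BL/6 organoids alone, and of the other 6 members 4 were lower. *Phlda3* (-1.61, adjusted p = 0.0103), *Aen* (-1.22, adjusted p = 0.0120) and *Zmat3* (-1.21, adjusted p = 0.0141) were lower as well. *Aen* lost its call without Cas9-GFP organoids 1 (adjusted p = 0.0569), and *Zmat3* without Cas9-GFP organoids 1 or 2 or C57BL/6 oviductal organoids 3 (adjusted p 0.0508 to 0.0698). *Cdkn1a* held 443, 592 and 698 CPM in C57BL/6 organoids and overlapped Cas9-GFP organoids (log2 fold change -0.14, SE 0.23). *Mdm2* had a log2 fold change of -0.59 (SE 0.25, adjusted p = 0.102).

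*Bbc3* and *Sesn2* did not pass the filter between the intact cultures but lay apart by level. *Bbc3* had 16, 13 and 15 reads in C57BL/6 organoids and 2, 1 and 3 in Cas9-GFP organoids, a 3.91-fold lower pooled level in the latter with an exact 95% counting interval from 1.66 to 11.2. *Sesn2* held 10.97, 13.5 and 6.56 CPM in C57BL/6 organoids, which is above the 6.42 CPM of the highest Cas9-GFP library. *Trp53* overlapped, at 34.3, 18.6 and 45.9 CPM in C57BL/6 organoids, with a log2 fold change of 0.60 (SE 0.33, adjusted p = 0.201). The oviductal secretory list summed to 14829 to 23131 CPM in C57BL/6 organoids and to 234 to 247 CPM in Cas9-GFP organoids, and its part in the lower p53 targets was not tested.

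Between the tumor-derived organoids and the clones, no member and no gene was called by edgeR (0% of 9496 genes, with 754 genes, or 7.94%, and 1 of 9 members at an unadjusted p under 0.05). *Trp53inp1* was that member. It held 22.3, 24.6 and 21.7 CPM in the clones and 2.28, 5.70, 2.43 and 6.31 CPM in T1-mes, T2-epi, T3-mes and T4-epi. The groups lay well apart, at a log2 fold change of -2.47 (SE 0.53, adjusted p = 0.433 by edgeR). It reached the filter's level through the clones alone. DESeq2 called it lower (adjusted p = 0.0469), as 1 of 82 genes in all. TBP clone 1 contributed 2 reads to this gene. *Bax*, *Aen* and *Zmat3* reached that level through the tumor-derived lines alone. The other 8 members tested had log2 fold changes from -0.97 for *Cdkn1a* (SE 0.53) to 0.68 for *Aen* (SE 0.55), and *Bbc3* was not tested.

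Between the mes and epi lines, 2 libraries each, again no member was called by edgeR, and 1.13% of 9775 genes were. At an unadjusted p under 0.05 there was 1 of 9 members, *Phlda3*, beside 14.1% of all genes, and DESeq2 called it as 1 of 534 genes. *Phlda3*, the Akt inhibitor, had the largest difference of the members, with 7.74 (T1-mes) and 18.4 CPM (T3-mes) against 1 read in T2-epi and 2 reads in T4-epi. Its pooled level was 17.9-fold higher in mes lines (exact 95% counting interval 5.83 to 89.7), and it reached the filter's level through the mes lines alone, so that its test had to favor a difference. *Ccng1*, *Zmat3* and *Mdm2* were higher in both mes than in both epi lines, with log2 fold changes of 1.08 (SE 0.49), 1.16 (SE 0.51) and 0.34 (SE 0.33). *Aen* (-0.69, SE 0.53) and *Trp53inp1* (-1.32, SE 0.65) lay the other way, the latter having reached the filter's level through the epi lines alone. From *Ccng1* to *Trp53inp1* the adjusted p by edgeR was 0.384 to 0.704. With 2 libraries a side groups part easily, and the share of all genes that did so was not counted. *Cdkn1a* (-0.87, SE 0.70), *Bax* (0.41, SE 0.48), *Sesn2* (0.45, SE 0.87) and *Bbc3*, which was not tested, overlapped. The fibroblast markers given for these lines differed in the same direction as *Phlda3*, and their part in it was not tested.

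The tumors were compared with 3 references. Against Cas9-GFP organoids, *Bax* and *Bbc3* were higher in the tumors and *Cdkn1a* was lower, 3 of 9 members tested, where 44.3% of 9494 genes were called. *Bax* ranged from 28.4 to 42.3 CPM with a median of 37.5 over the 6 tumors, above every Cas9-GFP library. The log2 fold change was 0.75 (SE 0.26, adjusted p = 0.0396). Its call was lost without tumor 1, 2, 5 or 6 or Cas9-GFP organoids 1 or 2 (adjusted p 0.0517 to 0.110). *Bbc3* ranged from 5.24 to 12.9 CPM with a median of 10.9, against 6 reads in the 3 Cas9-GFP libraries. Pooled, this is 4.45-fold higher (exact 95% counting interval 1.98 to 12.4). *Bbc3*, *Phlda3* and *Trp53inp1* reached the filter's level through the tumors alone, and of the other 6 members 2 were called. *Cdkn1a* ranged from 63.4 to 160.1 CPM with a median of 100.5, all below the Cas9-GFP organoids, and fell by 2.34 on the log2 scale (SE 0.29, adjusted p = 0.000258). *Ccng1*, *Aen* and *Zmat3* had log2 fold changes of -0.21 (SE 0.36), -0.21 (SE 0.35) and -0.25 (SE 0.31), with overlapping groups. *Mdm2* (-0.33, SE 0.27), *Phlda3* (0.24, SE 0.56) and *Trp53inp1* (-0.66, SE 0.59) overlapped as well. *Sesn2* had 4 reads in all tumors and 13 in the Cas9-GFP organoids, a 14.9-fold lower pooled level (exact 95% counting interval 4.59 to 62.6).

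Against tumor-derived organoids, 4 of 9 members were called, where 27.4% of 10605 genes were: *Ccng1*, *Bax* and *Bbc3* were higher in the tumors and *Cdkn1a* lower. *Bax* had the smallest adjusted p, with 28.4 CPM in the lowest tumor and 20.04 CPM in the highest of the 4 lines (log2 fold change 1.32, SE 0.22, adjusted p = 0.00175). *Bbc3*, *Phlda3* and *Trp53inp1* reached the filter's level through the tumors alone, and of the other 6 members 3 were called. *Bbc3* held 0.911 to 5.22 CPM in the lines, below every tumor. *Cdkn1a* fell by 1.81 on the log2 scale (SE 0.42, adjusted p = 0.00992). *Ccng1* overlapped, with 56.6 to 163.6 CPM in tumors and 16.6 to 61.1 CPM in the lines (log2 fold change 1.16, SE 0.39, adjusted p = 0.0492). It lost its call without any 1 of tumors 1, 2, 4, 5 and 6 or of T1-mes, T2-epi and T4-epi (adjusted p 0.0502 to 0.110). *Trp53* was 2.25 higher on the log2 scale in the tumors (SE 0.36, adjusted p = 0.00141), and reached the filter's level through the tumors alone. *Sesn2* had 4 reads in all 6 tumors and 38 in the 4 lines, which is 13.2-fold lower (exact 95% counting interval 4.76 to 50.95). *Zmat3* (0.99, SE 0.34, adjusted p = 0.0536), *Aen* (0.63, SE 0.31), *Trp53inp1* (1.29, SE 0.54), *Phlda3* (1.48, SE 0.80) and *Mdm2* (-0.21, SE 0.21) were not called.

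Against oviduct tissue, prepared by the same extraction method as tumors, 3 of 9 members were called and 46.1% of 10827 genes were. *Bax* held 10.9, 13.2 and 9.78 CPM in oviduct tissue, below every tumor (log2 fold change 1.64, SE 0.23, adjusted p = 0.000376). *Ccng1* held 52.97, 42.1 and 45.2 CPM in the tissue, also below every tumor (log2 fold change 0.93, SE 0.33, adjusted p = 0.0427). Its call was lost without tumor 4 or 6 or any 1 oviduct tissue (adjusted p 0.0621 to 0.132). *Trp53inp1* was lower, with 3.50 to 17.5 CPM in tumors and 37.9 to 48.6 CPM in the tissue (log2 fold change -2.08, SE 0.43, adjusted p = 0.00324). *Cdkn1a*, in contrast to its difference from the organoids, had 107, 109 and 98.98 CPM in oviduct tissue, inside the tumor range (log2 fold change -0.04, SE 0.27). *Mdm2* (-0.19, SE 0.23), *Aen* (-0.32, SE 0.28), *Phlda3* (0.14, SE 0.49), *Zmat3* (-0.15, SE 0.26) and *Bbc3* (1.06, SE 0.44, adjusted p = 0.0725), which reached the filter's level through the tumors alone, overlapped. *Sesn2* had 4 reads in the tumors and 8 in the tissue, a 7.92-fold lower pooled level (exact 95% counting interval 2.12 to 35.95).

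Markers of other cell types were high in the tumors. The fibroblast list summed to 9929 to 58827 CPM with all 8 genes detected, the myeloid list to 541 to 2402 CPM and the endothelial list to 50.7 to 192 CPM. In Cas9-GFP organoids the same lists summed to 0 to 1.73, 27.8 to 44.9 and 1.91 to 4.28 CPM, with 7 of 8 fibroblast genes at 0 in every library. Fibroblast genes were also detected in the mes lines, which were grown under Nutlin-3a. The study reports GFP in all cells of these mixed cultures. Whether the list marks host cells or tumor cells in the tumors was not tested. The part of host cells in the p53 target levels of tumors was not tested. In bulk RNA, fewer cells of a type and less RNA per cell cannot be told apart. Tissues and tumors were extracted with Trizol and organoids with a column kit, so that extraction and sample type cannot be told apart either.

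The test of the difference between both kinds of sample compared tumors minus oviduct tissue with tumor-derived minus Cas9-GFP organoids. Of 9 members tested, 2 differed, beside 12.7% of 11496 genes. *Ccng1* had log2 fold changes of 0.93 in tissue and -1.36 in organoids (difference 2.30, SE 0.58, adjusted p = 0.0191), and *Bax* 1.64 and -0.56 (difference 2.19, SE 0.39, adjusted p = 0.00327). The call of *Ccng1* was lost without oviduct tissue 2 (adjusted p = 0.0531) or Cas9-GFP organoids 3 (adjusted p = 0.0607). *Cdkn1a*, *Mdm2* and *Trp53inp1* had differences of 0.48 (SE 0.61), -0.07 (SE 0.36) and -0.13 (SE 0.86), and *Aen*, *Phlda3*, *Zmat3* and *Bbc3* of 0.51 (SE 0.51), 1.38 (SE 1.13), 1.08 (SE 0.53) and 0.98 (SE 0.89). Strain, host and growth as a tumor differ together with the TBP state in the tissue arm and cannot be told apart from it.

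Cultures were also set beside the tissue they came from. In C57BL/6 oviductal organoids all 8 members tested were higher than in oviduct tissue, beside 42.9% of 9477 genes called and 18.7% higher. By level, all 10 members lay above every tissue library, as did 18% of the 15870 genes with a read, and the median log2 fold change was 1.42, beside -0.02 for all genes. *Cdkn1a* held 443 to 698 CPM in organoids and 98.98 to 109 CPM in tissue (log2 fold change 2.45, SE 0.21, adjusted p = 2.7e-06). *Ccng1* held 210 to 243 CPM against 42.1 to 52.97 CPM (log2 fold change 2.23, SE 0.19, adjusted p = 2.48e-06), and *Bax* 41.5 to 56.7 CPM against 9.78 to 13.2 CPM (log2 fold change 2.15, SE 0.28). *Phlda3* (1.53, SE 0.32), *Zmat3* (1.31, SE 0.27), *Aen* (1.13, SE 0.24) and *Mdm2* (0.75, SE 0.20) were higher too. The smallest change among members tested was that of *Trp53inp1* (0.60, SE 0.21, adjusted p = 0.0390), which lost its call without C57BL/6 oviductal organoids 1 or 2 or any 1 oviduct tissue (adjusted p 0.0659 to 0.100). *Trp53* itself held 19.7 to 25.7 CPM in tissue and overlapped the organoids (log2 fold change 0.50, SE 0.34, adjusted p = 0.252). Oviduct tissue held fibroblast markers at 3953 to 7192 CPM, smooth muscle markers at 5573 to 6991 CPM, endothelial markers at 143 to 160.1 CPM and secretory markers at 72976 to 114370 CPM. In the organoids these lists summed to 0 to 5.08, 0.656 to 6.68, 9.06 to 19.0 and 14829 to 23131 CPM, and their part in the difference was not tested.

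In OSE organoids, 2 libraries, all 8 members tested were likewise higher than in the 3 OSE tissue libraries, beside 33.1% of 10232 genes called and 14.5% higher. The median was 2.39, beside -0.07 for all genes. *Phlda3* had the largest change, with 71.0 and 54.2 CPM in organoids and 11.8, 6.99 and 4.25 CPM in tissue (log2 fold change 3.07, SE 0.44, adjusted p = 0.00299). *Bax* rose by 2.84 (SE 0.45, adjusted p = 0.00442), *Cdkn1a* by 2.83 (SE 0.41, adjusted p = 0.00321) and *Ccng1* by 2.70 (SE 0.29, adjusted p = 0.00119) on the log2 scale. *Zmat3* (2.09, SE 0.46), *Trp53inp1* (1.76, SE 0.26), *Aen* (1.11, SE 0.30) and *Mdm2* (1.05, SE 0.27) were higher as well. *Mdm2* and *Aen* lost their calls without any 1 OSE tissue (adjusted p 0.0887 to 0.136), and *Zmat3* without OSE tissue 2 or 3 (adjusted p 0.0728 to 0.0819). *Bbc3* and *Sesn2* overlapped between the groups, with 6 and 14 reads of *Bbc3* and 3 and 1 reads of *Sesn2* in the organoids. OSE tissue held ovarian stroma and granulosa markers at 9323 to 11408 CPM, which OSE organoids held at 8.40 to 22.8 CPM, and their part in the difference was not tested.

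**Figure D4:**
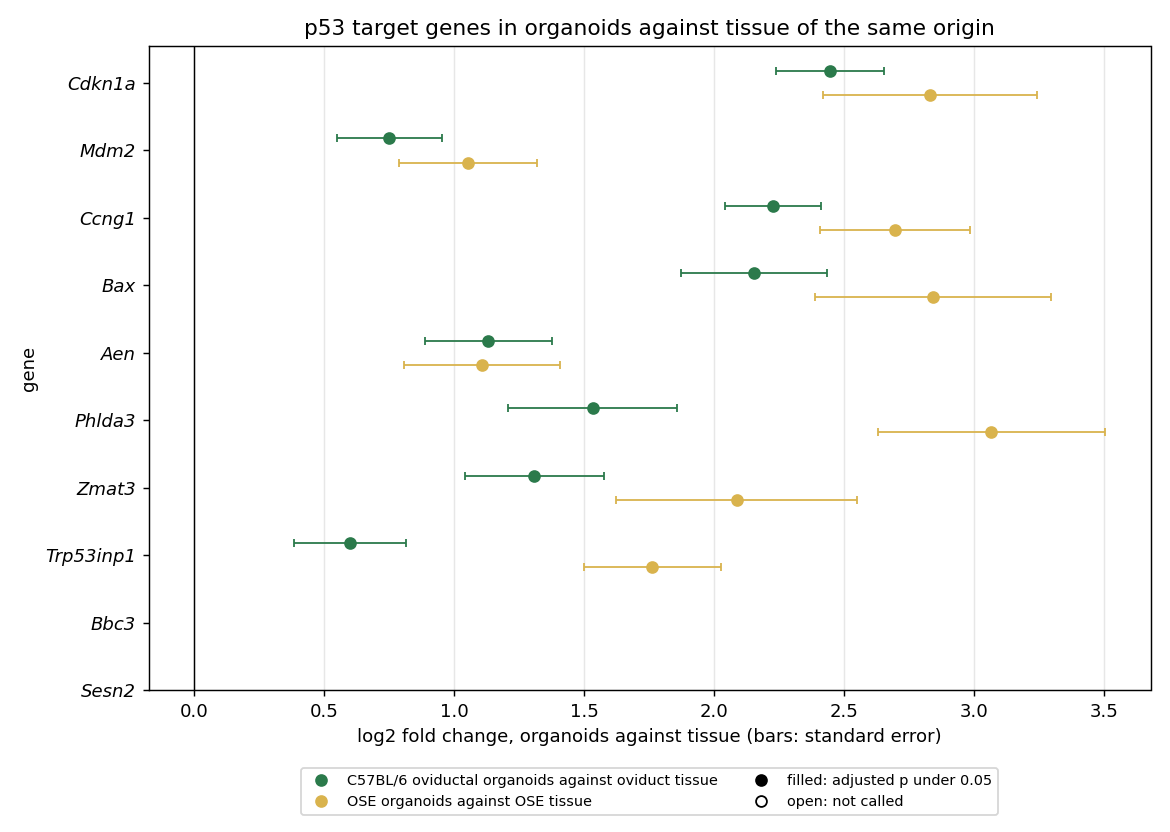
Log2 fold changes (x axis, bars are standard errors) of the p53 targets in C57BL/6 oviductal organoids against oviduct tissue (green) and in OSE organoids against OSE tissue (yellow). All 8 members tested are above 0 with an adjusted p under 0.05 in each comparison, and *Bbc3* and *Sesn2* did not pass the filter.

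Ordered by mean level, *Ccng1* ran from 28.3 ± 4.89 CPM (SD, n = 3) in OSE tissue to 223 ± 17.7 CPM (SD, n = 3) in C57BL/6 oviductal organoids. OSE organoids (184 ± 63.2 CPM, n = 2), Cas9-GFP organoids (104 ± 41.7 CPM, n = 3), tumors (91.9 ± 39.4 CPM, n = 6), clones (49.4 ± 35.8 CPM, n = 3), oviduct tissue (46.8 ± 5.59 CPM, n = 3) and tumor-derived organoids (41.5 ± 19.4 CPM, n = 4) lay between. Each pair of neighbors in this order overlapped. *Cdkn1a* was at 80.4 to 105 CPM on average in both tissues and in tumors, and at 366 to 697 CPM in the 5 organoid groups, which overlapped each other. *Mdm2* was at 51.5 to 85.1 CPM on average in all groups but the C57BL/6 oviductal organoids (111 ± 15.9 CPM, n = 3) and OSE organoids (175 ± 63.0 CPM, n = 2).

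Of 40 further p53 targets, 37 were measured. Between clones and Cas9-GFP organoids, 22 were tested, of which 2 were higher and none was lower, beside 0.817% of all genes called. Described here is *Pmaip1*, which encodes the cell death protein Noxa. *Pmaip1* held 75.5, 89.8 and 107 CPM in Cas9-GFP organoids and 302, 408 and 345 CPM in the clones (log2 fold change 1.99, SE 0.32, adjusted p = 0.0150). Its groups lay apart without overlap and in the direction opposite to *Trp53*. The call was lost without any 1 Cas9-GFP library (adjusted p 0.124 to 0.206) and in the fit of all 27 libraries (adjusted p = 0.0709). Of 29 tested in tumor-derived organoids none was called by edgeR, beside 1.08% of all genes.

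In the 7 mutant against the 6 intact cultures, 5 of 30 further targets were lower, beside 1.98% of all genes, and none was higher. They were *Ephx1*, an epoxide hydrolase (log2 fold change -1.76, SE 0.32, adjusted p = 0.00929), *Psrc1*, a spindle protein (-3.46, SE 0.65, adjusted p = 0.0119), and *Ei24*, a protein of the endoplasmic reticulum (-1.31, SE 0.28, adjusted p = 0.0205). *Dyrk3*, a kinase (-2.39, SE 0.54, adjusted p = 0.0236), and *Gdf15*, a secreted stress cytokine (-3.30, SE 0.85, adjusted p = 0.0412), were the others. *Gdf15* reached the filter's level through the intact cultures alone, where it is high, which favors a lower call in the mutants. *Psrc1* was tested in 12 of the 13 fits that left out 1 library, and was called in all 12. How *Psrc1* and the others passed the filter was not examined. The median of the 30 was -0.59, beside 0.01 over all genes. Against Cas9-GFP organoids alone none of the 5 was called (adjusted p 0.260 to 0.539), and all 5 were called against C57BL/6 organoids alone. With both references, *Gdf15*, *Dyrk3* and *Ei24* lost their calls when any 1 C57BL/6 oviductal library or T1-mes was left out, *Dyrk3* and *Gdf15* also without T4-epi, and *Gdf15* also without TBP clone 1 or 2 or T2-epi (adjusted p 0.0512 to 0.101). Between the intact cultures, 12 of 31 further targets were lower and 3 higher in Cas9-GFP organoids. Over all genes, 26.3% were called there and 13.3% were lower.

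In tumors against Cas9-GFP organoids, where 44.3% of 9494 genes were called, 9 of 27 further targets were higher and 3 lower. Among them *Dcxr*, a carbonyl reductase, fell by 5.03 (SE 0.61, adjusted p = 0.000236), *Ephx1* by 2.27 (SE 0.35, adjusted p = 0.000819) and *Pmaip1* by 1.16 (SE 0.40, adjusted p = 0.0378) on the log2 scale. *Plk2*, a polo-like kinase (1.65, SE 0.59), *Ikbip* (1.59, SE 0.29), *Rap2b*, a small GTPase (1.35, SE 0.35), and *Ei24* (0.59, SE 0.21) were higher. *Pmaip1*, *Plk2* and *Ei24* each lost the call without any of 6 to 8 of the 9 libraries. Of 20 regulators of p53, 19 were measured. *Kat5*, an acetyltransferase, and *Cdkn2a* were higher in the tumors and *Chek2*, a kinase, was lower (14 tested, beside 44.3% of all genes called). The call of *Kat5* was lost without Cas9-GFP organoids 1 or 2 (adjusted p 0.0543 to 0.0626). *Cdkn2a* was the 1 regulator called in clones (12 tested) and in tumor-derived organoids (15 tested), higher in both. The shares of all genes called were 0.817% and 1.08%. In clones and in tumors *Cdkn2a* reached the filter's level through the clones or the tumors alone, which favors a higher call. In tumor-derived organoids it could not have passed without those lines, which favors a higher call too.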

How the data were processed

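Bulk RNA of 27 libraries was sequenced by CEL-Seq2, which tags transcripts at their 3′ end. The authors aligned reads to GRCm38 with BWA, kept uniquely placed reads on the transcript's strand and deposited raw counts per gene, without normalization and without collapsing unique molecular identifiers. The submitters' processing notes also name DESeq2 1.18.0. A spike-in entry with 1 count was left out, which leaves 18305 genes. Libraries were assigned to groups by their column names and the labels.

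Differences between groups were tested in edgeR 4.0.16 (R 4.3.3) by its quasi-likelihood method (TMM, filterByExpr with a minimum count of 10, two-sided, on the libraries compared). Adjusted p-values are Benjamini-Hochberg values over all genes tested, with a threshold of 0.05. CPM were scaled by TMM factors over all 27 libraries. Ratios of low counts carry exact 95% binomial intervals. Alternatives were RLE factors, DESeq2 1.42.0, no filter, leaving out each library in turn, replicate blocks, and 1 model over all 27 libraries. The fits were tested on simulated data. Gene positions are from GENCODE vM21 and promoters from RefSeq (GRCm38.p6). Figures used matplotlib 3.10.9 in Python 3.11.15. No pair of replicates agreed within counting noise: the lowest chi-square per gene of any pair was 2.77.

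The members and gene lists were chosen with earlier results of these data known. All members are described, by a test or by their reads. Members that reached the filter's level in 1 group alone are named beside the counts. Of the other genes this is given for *Trp53*, *Gdf15* and *Cdkn2a* only. Of the other lists, genes called in the first 3 comparisons or between mutant and intact cultures are named, up to the 12 with the smallest adjusted p in the last, and *Cdkn2a* and *Chek2* were named after their values were seen. Some values of the edited genes and of 1 listed target are not reported here.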

Additional observations from a re-analysis of the deposited data

Results flagged for a closer look

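Among the 6 TBP tumors, 2 libraries stood apart from the others by the gap test of Dixon at the 95% level: tumor 5 for *Mdm2*, at 88.4 CPM where the next tumor was at 60.1 CPM, and tumor 2 for *Sesn2*, at 2.62 CPM (3 reads) where the next was at 0.339 CPM. In all 22 pairs of a gene and a group were examined, of which chance alone marks about 1 in 20.

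The difference between tumors and oviduct tissue was not the same as that between tumor-derived and Cas9-GFP organoids for *Trp53*, by 3.33 on the log2 scale (SE 0.50, adjusted p = 0.0011), for *Ccng1*, by 2.30 (adjusted p = 0.0191), and for *Bax*, by 2.19 (adjusted p = 0.00327). Strain, host and growth as a tumor cannot be told apart from the TBP state in the first of these. The tumors hold host cells with unedited *Trp53*, and the part of these cells in the 3 differences was not tested.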

How the results depend on the processing

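Of 855 results that each left out 1 library, 773 kept their direction and their side of the threshold, 39 lost a call, 9 gained one and 34 changed sign, none of them called. Under the other alternatives the numbers were 424, 13, 25 and 5 of 467, and again none that changed sign was called. The fit of all 27 libraries, which shares 1 estimate of the spread, moved the number of members called to 3 in tumor-derived against Cas9-GFP organoids, 7 in mutant against intact cultures, 1 in tumor-derived organoids against clones, 9 in tumors against tumor-derived organoids (7 higher, 2 lower), 3 in Cas9-GFP against C57BL/6 organoids and 1 in mes against epi lines (*Phlda3*, which reached the filter's level through the mes lines alone). DESeq2 gave 6 members in mutant against intact cultures and 1 each in tumor-derived organoids against clones and in mes against epi lines. Without a filter on low counts, 2 members (*Ccng1* and *Zmat3*) were lower in clones than in Cas9-GFP organoids, and 372 genes were called instead of 63. Mutant cultures had 0 members called without the C57BL/6 oviductal organoids and 8 without the Cas9-GFP organoids, both chosen after seeing the data. The cause of these changes was not tested. Single calls lost under other settings were *Ccng1* in tumors against oviduct tissue with RLE factors (adjusted p = 0.0518), *Ccng1* in tumors against tumor-derived organoids without a filter (0.0543), *Bax* in tumors against Cas9-GFP organoids with all libraries (0.0639), and *Trp53inp1* in C57BL/6 oviductal organoids against tissue (0.129) and *Aen* in OSE organoids against tissue (0.0535) by DESeq2.

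The number of all genes called differed by over 1.5 times in several alternatives. In clones against Cas9-GFP organoids it fell from 63 to 3 without Cas9-GFP organoids 1 and rose to 208 without TBP clone 2. In tumor-derived against Cas9-GFP organoids it fell from 103 to 0 without any Cas9-GFP library, rose to 407 without T3-mes, and was 560 by DESeq2 and 694 with all libraries. In mutant against intact cultures it ran from 107 to 418 over left-out libraries, and was 756 by DESeq2 and 1561 with all libraries. Between mes and epi lines it ran from 0 to 1458. Numbers of members called over left-out libraries ran from 0 to 1 (without T1-mes) in mes against epi lines, 5 to 8 in OSE organoids against tissue and 1 to 2 in the difference between tissue and culture.

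Log2 fold changes that changed sign, none called, were those of *Sesn2* in mutant cultures without the C57BL/6 organoids (0.25), *Ccng1* in tumor-derived organoids against clones with RLE factors (0.0168) and all libraries (0.0243), *Cdkn1a* in tumors against oviduct tissue without a filter (0.0186) and *Trp53inp1* in the difference between tissue and culture with all libraries (9e-04). Over left-out libraries, values ran from -0.35 to 0.16 for *Mdm2* and -0.45 to 0.15 for *Sesn2* in tumor-derived against Cas9-GFP organoids. In tumors against Cas9-GFP organoids they ran from -0.44 to 0.20 for *Ccng1*, -0.46 to 0.20 for *Aen*, -0.10 to 0.63 for *Phlda3* and -0.46 to 0.18 for *Zmat3*. In mutant cultures *Cdkn1a* ran from -0.37 to 0.0149. In tumor-derived organoids against clones the ranges were -0.53 to 0.48 for *Ccng1*, -0.28 to 0.33 for *Bax* and -1.19 to 0.45 for *Phlda3*. In tumors against oviduct tissue they were -0.20 to 0.0601 for *Cdkn1a*, -0.0887 to 0.39 for *Phlda3* and -0.28 to 0.0249 for *Zmat3*. In mes against epi lines *Cdkn1a* ran from -1.59 to 0.40 and *Sesn2* from -0.49 to 1.43, and in the difference between tissue and culture *Mdm2* ran from -0.36 to 0.15 and *Trp53inp1* from -0.78 to 0.27.

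With the library number as a block, clones against Cas9-GFP organoids had 0 members and 95 genes called. Same-numbered libraries correlated by 0.064, 0.14 and 0.063, and the other pairs by -0.105 to 0. These small values do not settle whether the numbers pair the libraries. With the submitted sample as a block, mes against epi lines had 0 members and 240 genes called instead of 110. Depth limits TBP clone 1 most, where values under 33.5 CPM cannot be told from 0.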

Other observations

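Genes that act on or beside p53 also varied between the cultures. These were chosen after their values were seen. *Cdkn2a*, whose locus encodes p16 and the Mdm2 inhibitor p19Arf, held 104, 110.0 and 137 CPM in C57BL/6 oviductal organoids but 5.73, 3.45 and 5.35 CPM in Cas9-GFP organoids (log2 fold change -4.50, SE 0.31, adjusted p = 2.77e-06). It was higher than in Cas9-GFP organoids in TBP clones (3.15, SE 0.49, adjusted p = 0.0134) and tumor-derived organoids (4.57, SE 0.51, adjusted p = 0.0141). In the first of these it reached the filter's level through the clones alone. In the second it could not have passed without the tumor-derived lines, where it is high, which favors a higher call as well. Oviduct tissue held 0 to 7.89 CPM of it, so that the C57BL/6 organoids were also above their tissue of origin (log2 fold change 5.20, SE 0.47, adjusted p = 4.33e-06). Against Cas9-GFP organoids and against tissue, *Cdkn2a* reached the filter's level through the C57BL/6 organoids alone. The filter thus favors a difference in the direction found.

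*Trp63*, a relative of *Trp53*, had no read in any clone or Cas9-GFP library or in 3 of the 4 tumor-derived lines. It held 12.6 CPM in T3-mes, and 0.546 to 51.1 CPM in the 6 tumors, with 16.6, 10.5 and 51.1 CPM in tumors 2, 3 and 4. *Trp73*, the other relative, held 10.9, 11.8 and 4.89 CPM in oviduct tissue and no reads in Cas9-GFP organoids, clones or tumor-derived organoids.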
